A study of Mus musculus with 12 samples.

Results

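The collagen genes of a mouse cell model of Huntington's disease were taken as every probe of the unnormalized signal table whose annotated symbol has the form of a collagen chain, Col with a type number and a chain number. The rule found 81 probes of 38 genes, among 44505 probes and 17056 annotated genes. They comprised 11 fibrillar genes, 6 basement membrane genes (the type IV chains) and 21 other genes. Collagen genes outside the annotation used, such as Col6a3 and Col12a1, were not analysed here. The samples were immortalised striatal cells, 1 line from homozygous knock-in mice with 7 CAG repeats in the huntingtin gene Hdh (Hdh7/7) and 1 line from homozygous knock-in mice with 109 CAG repeats (Hdh109/109). Both lines were grown at 33 °C and 5% CO2, in DMEM that held 10% fetal calf serum. Each line was measured without transfection, with an empty vector and with DNRest, in the study a dominant-negative form of the transcriptional repressor REST, which gave 6 groups of 2 arrays. Since each genotype is 1 line, repeat length and anything else in which the lines differ cannot be told apart.

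Collagens are secreted proteins of 3 chains wound into a triple helix, and they form most of the scaffold between cells. Fibrillar collagens assemble into the tensile fibrils of connective tissue and are made mainly by fibroblasts and other mesenchymal cells. Type IV collagens form the sheet of the basement membrane that lies under epithelia and around vessels, and in brain they are found chiefly at the vasculature. Other collagens build microfilaments, link fibrils, anchor the basement membrane or carry heparan sulphate chains.

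Of the 38 genes, 16 had a probe that passed a detection p of 0.01 on 2 or more of 12 arrays and were tested. They were 6 of 11 fibrillar genes, 4 of 6 basement membrane genes and 6 of 21 others, represented by 25 probes. The remaining 22 genes had no tested probe. Among all members 55 probes were detected on no array, with normalized signals of log2 4.44 to 6.73, and 1 Col4a4 probe was detected on 1 array. The untested genes included the cartilage collagen Col2a1, the fibrillar Col11a1, Col5a3, Col24a1 and Col27a1, the type IV chains Col4a3 and Col4a4, and all 3 type IX chains. Of the 25 probes, 5 were detected in 1 line only and passed the filter through it, so a difference in that direction was fixed by the filter. They were the Col1a2 probe, a dimmer Col3a1 probe and 2 of the Col5a2 probes, seen in Hdh109/109 cells only, and a dimmer Col4a6 probe, seen only in untransfected Hdh7/7 cells. Their values are given as a description, and counts of calls are given for the 20 probes and 15 genes detected in both lines. Another 12 genes were detected on all 12 arrays: Col4a1, Col4a2, Col4a5, Col4a6, Col5a1, Col5a2, Col6a1, Col6a2, Col7a1, Col8a1, Col16a1 and Col18a1.

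Promoters are shown for genes on which the results turn: Col1a2 and Col3a1, which had the highest fitted differences between the untransfected lines, Col6a1, which moved in opposite directions in the lines, and the neighbouring type IV pair Col4a5 and Col4a6. Each is the 250 bases before the annotated start, from RefSeq on GRCm38.p6, where 31 of the 38 genes have such a window. Capitals mark matches on either strand to the CCAAT box, to the GC box spelled GGGCGG or to the TATA box spelled TATAAA. The Col1a2 window lies at chr6:4505368-4505617 on the plus strand, the Col3a1 window at chr1:45311288-45311537 on the plus strand and the Col6a1 window at chr10:76726045-76726294 on the minus strand. Those of Col4a5 and Col4a6 lie at chrX:141475169-141475418 on the plus strand and chrX:141474077-141474326 on the minus strand.
Col1a2: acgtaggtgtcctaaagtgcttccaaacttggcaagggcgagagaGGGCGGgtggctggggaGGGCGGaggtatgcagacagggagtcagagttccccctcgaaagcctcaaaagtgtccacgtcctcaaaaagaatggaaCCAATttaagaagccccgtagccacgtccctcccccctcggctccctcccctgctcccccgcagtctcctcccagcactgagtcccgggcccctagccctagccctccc
Col3a1: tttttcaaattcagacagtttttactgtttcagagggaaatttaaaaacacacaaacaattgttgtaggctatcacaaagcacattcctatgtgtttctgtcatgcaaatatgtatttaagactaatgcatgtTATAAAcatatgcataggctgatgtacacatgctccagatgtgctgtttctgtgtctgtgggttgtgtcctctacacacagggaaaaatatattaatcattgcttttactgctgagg
Col6a1: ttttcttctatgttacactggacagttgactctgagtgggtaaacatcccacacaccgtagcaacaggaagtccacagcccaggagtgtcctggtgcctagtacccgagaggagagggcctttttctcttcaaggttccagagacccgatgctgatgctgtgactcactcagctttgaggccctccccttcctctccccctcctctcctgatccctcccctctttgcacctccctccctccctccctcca
Col4a5: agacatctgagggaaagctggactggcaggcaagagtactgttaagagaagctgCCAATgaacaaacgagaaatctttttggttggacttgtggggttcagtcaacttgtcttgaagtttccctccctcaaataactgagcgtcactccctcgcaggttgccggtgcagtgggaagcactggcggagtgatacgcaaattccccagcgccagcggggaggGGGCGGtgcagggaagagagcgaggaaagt
Col4a6: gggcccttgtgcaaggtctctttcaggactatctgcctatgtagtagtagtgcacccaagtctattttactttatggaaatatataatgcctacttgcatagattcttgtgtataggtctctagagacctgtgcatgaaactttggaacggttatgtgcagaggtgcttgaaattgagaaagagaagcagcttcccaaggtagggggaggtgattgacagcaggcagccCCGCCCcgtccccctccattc
The Col1a2 window held 1 CCAAT and 2 GC boxes, the Col3a1 window 1 TATA box, and the Col6a1 window none of these letters. The Col4a5 window held 1 CCAAT and 1 GC box and the Col4a6 window 1 GC box. Over 32851 windows of this length in the mouse annotation, 33.8% held CCAAT, 32.7% a GC box and 12.4% a TATA box. These matches describe the letters only. Col3a1 and Col5a2 are also neighbours in the genome, as are Col4a1 and Col4a2, and Col6a1 and Col6a2.

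The arrays detected 10295 to 14370 probes each, and arrays of the same group correlated at r = 0.979 to 0.993 over probes, against 0.887 to 0.916 between the lines. On 3 arrays the raw median signal was over 100: Hdh7/7 empty vector replicate 2, Hdh109/109 untransfected replicate 2 and Hdh109/109 DNRest replicate 1. On 6 of 12 arrays the source name gives the other line than the title, and groups follow the titles and the genotype and transfection labels. Htt, whose signal gives no repeat length, stood at log2 6.86 ± 0.25 (SD, n = 2) in Hdh7/7 cells without transfection and was undetected on all 6 Hdh109/109 arrays. The labels call the replicates biological but name no separate cultures, so the p-values measure the spread between arrays, which may be technical.

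The first question was how the lines differ in collagen expression without transfection. Fibrillar collagens of types I and III were higher in Hdh109/109 cells, and all 4 detected type IV collagens were lower. The type VI microfilament genes were higher, and the short-chain collagen Col8a1 and the multiplexin Col18a1 were lower. Of the 15 genes detected in both lines, 4 were called higher and 6 lower, at a Benjamini-Hochberg adjusted p under 0.05 (limma). In probes, 5 of 20 were called higher and 8 lower, or 8 and 9 of all 25. Over all 15224 probes tested 17.6% were called higher and 18% lower, 35.6% in all, so a call between these lines was common. The median log2 difference was -0.15 over the 15 genes and 0.02 over all probes. By class, the median was 0.30 over 5 fibrillar genes (1.02 over 6 with Col1a2), -1.95 over 4 basement membrane genes and 0.09 over 6 other genes. The 0.30 was the value of Col11a2, which was not called and was detected on 1 of 2 untransfected arrays in each line. Col1a1 and Col3a1 lay above it, and Col5a1 and Col5a2 below. In bulk RNA, fewer cells of a type and less RNA per cell cannot be told apart.

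**Figure D1:**
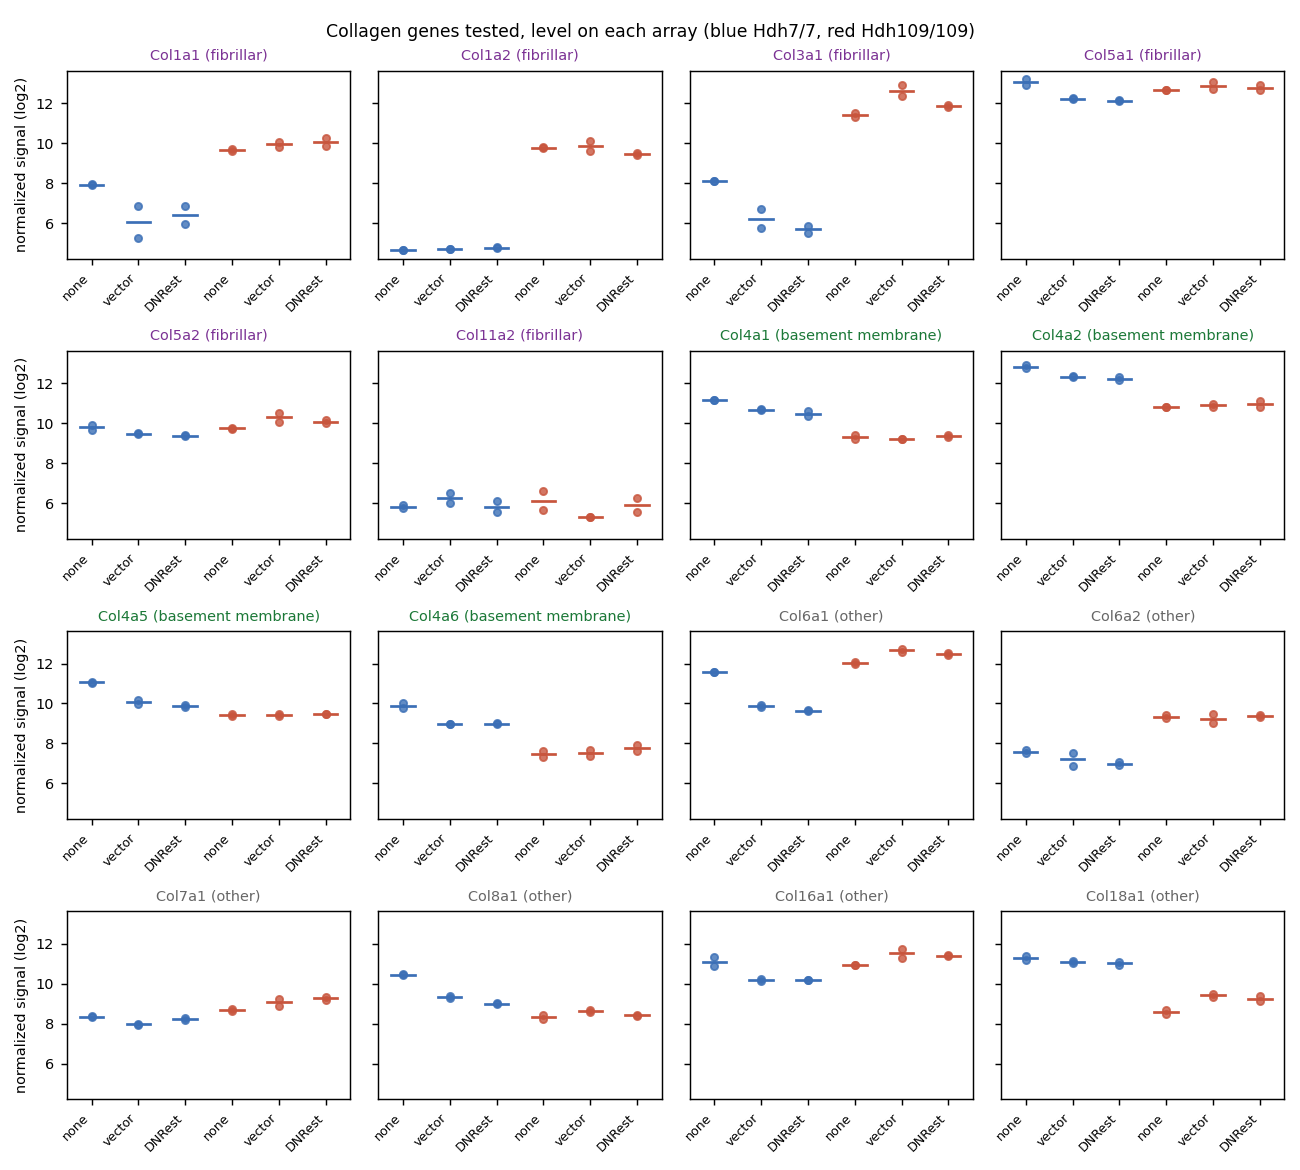
Normalized signal (log2) of each tested collagen gene on each array, with a point per array and a line at the mean of 2 arrays, by transfection state (none is untransfected) and line (blue Hdh7/7, red Hdh109/109). Col1a2 and Col3a1 are higher on every Hdh109/109 array, Col4a1, Col4a2, Col4a5, Col4a6 and Col18a1 are lower on every Hdh109/109 array, and Col6a1 drops within Hdh7/7 after transfection.

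Col1a2 encodes the second chain of type I collagen, the main protein of bone, skin and tendon. Its log2 signal was 4.66 and 4.65 on the untransfected Hdh7/7 arrays, 4.68 and 4.70 with empty vector and 4.73 and 4.80 with DNRest, all undetected. On the Hdh109/109 arrays it was 9.81 and 9.74 untransfected, 9.63 and 10.10 with empty vector, and 9.38 and 9.53 with DNRest. The lines did not overlap, and no Hdh7/7 array detected the probe. A group undetected on every array gives only a bound, and the Hdh109/109 signal of Col1a2 exceeded it by at least 15.1-fold untransfected, at least 11.4-fold with empty vector and at least 10.5-fold with DNRest.

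Col1a1, which encodes the first chain of type I collagen, was by contrast detected in untransfected Hdh7/7 cells. It stood there at log2 7.89 and 7.93, at 6.86 and 5.27 with empty vector and at 6.83 and 5.95 with DNRest, the last value of each pair undetected. It stood in Hdh109/109 cells at 9.71 and 9.61 untransfected, 9.83 and 10.05 with empty vector and 9.85 and 10.27 with DNRest. Every Hdh109/109 array was above every Hdh7/7 array. The difference was 1.75 ± 0.44 (SE, log2; 3.37-fold, adjusted p = 0.0112) untransfected, 3.87 ± 0.44 with empty vector and 3.67 ± 0.44 with DNRest. The empty vector difference was 4.66 without Hdh7/7 empty vector replicate 1 and 3.08 without replicate 2, the undetected value, and without background correction it was 2.91 and the DNRest difference 2.88. The untransfected call was lost without Hdh7/7 untransfected replicate 1 (1.72, adjusted p = 0.0582) or replicate 2 (1.77, adjusted p = 0.0544). In Hdh7/7 cells the type I probes, 1 for each gene, thus differed in detection. Col1a1 was detected on 4 Hdh7/7 arrays, both untransfected ones among them, and Col1a2 on 0.

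Col3a1 encodes the chain of type III collagen, which accompanies type I in soft tissue. Its log2 signal was 8.09 on both untransfected Hdh7/7 arrays, 6.71 and 5.74 with empty vector and 5.51 and 5.85 with DNRest, and of these 4 transfected arrays only empty vector replicate 1 detected it. The Hdh109/109 arrays gave 11.29 and 11.51 untransfected, 12.36 and 12.90 with empty vector and 11.83 and 11.93 with DNRest. Again all Hdh109/109 arrays lay above all Hdh7/7 arrays. The gene was 9.93-fold higher in Hdh109/109 cells untransfected (3.31 ± 0.29, adjusted p = 1.66e-05) and 84.6-fold with empty vector (adjusted p = 1.22e-07). The empty vector fold takes in the undetected 5.74 of Hdh7/7 replicate 2, under the lowest detected signal of that array (6.73). With DNRest, undetected in Hdh7/7 cells, Col3a1 was at least 56-fold higher. Without background correction the Col3a1 differences were 5.45 with empty vector and 4.99 with DNRest (log2), against 6.40 and 6.20 with it. A dimmer Col3a1 probe was detected on 3 arrays, all transfected Hdh109/109, at 6.95, 6.97 and 6.76.

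The type V chains Col5a1 and Col5a2, which nucleate and limit the diameter of type I fibrils, were detected on all arrays in both lines. Col5a1 was at log2 13.20 and 12.89 in untransfected Hdh7/7 cells, 12.19 and 12.24 with empty vector and 12.14 and 12.11 with DNRest. On the Hdh109/109 arrays it was 12.64 and 12.64, 12.69 and 13.05, and 12.65 and 12.90. The untransfected difference of -0.41 ± 0.16 did not pass (adjusted p = 0.0807), while Col5a1 was higher in Hdh109/109 cells with empty vector (0.65, adjusted p = 0.00964) and with DNRest (0.65, adjusted p = 0.0114). For the Col5a2 probe with the highest mean signal the values were 9.93 and 9.66, 9.50 and 9.47, and 9.41 and 9.35 in Hdh7/7 cells. The Hdh109/109 arrays gave 9.77 and 9.73, 10.07 and 10.54, and 10.00 and 10.15. Its difference was -0.05 untransfected (adjusted p = 0.864), 0.82 with empty vector (adjusted p = 0.00348) and 0.69 with DNRest (adjusted p = 0.00961). Type V genes thus passed the test between the lines in both transfected states, where the Hdh7/7 values lay below those without transfection.

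The type V calls with transfection were near the limit of this design. Fitted with the compared groups alone, the empty vector calls of Col5a1 (0.65, adjusted p = 0.0758) and Col5a2 (0.82, adjusted p = 0.0531) were lost (limma). Median scaling lost the DNRest call of Col5a1 (0.60, adjusted p = 0.174). Without Hdh109/109 empty vector replicate 2 the empty vector difference of Col5a1 was 0.48 (adjusted p = 0.065). With DNRest, the calls were lost without Hdh109/109 DNRest replicate 2, at 0.53 for Col5a1 (adjusted p = 0.0966) and 0.62 for Col5a2 (adjusted p = 0.0705). They were also lost without Hdh7/7 DNRest replicate 2 (Col5a1 0.63, adjusted p = 0.0624; Col5a2 0.66, adjusted p = 0.0584), and for Col5a1 without replicate 1 (0.67, adjusted p = 0.0525). Of 3 further Col5a2 probes, 2 were detected on Hdh109/109 arrays only, on 2 and 5 of them. The other, detected on 9 arrays of both lines, was called higher with empty vector only (1.14, adjusted p = 0.0303).

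Col11a2, a cartilage fibril chain, was detected on 5 of 12 arrays and changed sign between states. It was at log2 5.89 and 5.76 untransfected, 6.00 and 6.49 with empty vector and 6.09 and 5.57 with DNRest in Hdh7/7 cells. Hdh109/109 cells had values of 5.64 and 6.61, 5.31 and 5.30, and 6.28 and 5.56. The only call was with empty vector, lower in Hdh109/109 cells (-0.94, adjusted p = 0.0446). There both Hdh109/109 arrays were undetected, and so was Hdh7/7 replicate 2, whose 6.49 lay under the lowest detected signal of that array (6.73). No bound on the fold can therefore be given. This call was lost when either untransfected or either DNRest array of Hdh7/7 cells, either Hdh109/109 empty vector array or Hdh7/7 empty vector replicate 2 was left out. Without the last of these the difference was -0.72 (adjusted p = 0.192).

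The basement membrane class moved the other way. In untransfected cells all 4 type IV genes tested were lower in Hdh109/109 cells, by 3.1-fold to 5.23-fold, and they were lower in both transfected states too. Col4a1 and Col4a2 encode the chains of the ubiquitous type IV molecule, and Col4a5 and Col4a6 encode chains with a narrower tissue range. All 5 of their probes detected in both lines were called lower in each state, where 18%, 20.3% and 18.6% of all probes were called lower untransfected, with empty vector and with DNRest. Col4a3 and Col4a4, the remaining chains of the class, had no tested probe.

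Col4a1 was at log2 11.19 and 11.18 in untransfected Hdh7/7 cells, 10.70 and 10.67 with empty vector and 10.61 and 10.36 with DNRest. The corresponding Hdh109/109 values were 9.40 and 9.22, 9.23 and 9.22, and 9.29 and 9.43. All Hdh109/109 arrays were low and lay within a narrow band, and the Hdh7/7 arrays stepped down with transfection without reaching it. The gene was 3.67-fold lower in Hdh109/109 cells untransfected (-1.88 ± 0.13, adjusted p = 3.55e-06), 2.75-fold with empty vector (adjusted p = 1.96e-05) and 2.18-fold with DNRest (adjusted p = 0.000134).

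Col4a2, the neighbour and partner chain of Col4a1, ran in parallel. It was at 12.92 and 12.77, 12.36 and 12.29, and 12.32 and 12.15 in Hdh7/7 cells untransfected, with empty vector and with DNRest. The Hdh109/109 arrays gave 10.81 and 10.83, 10.84 and 10.97, and 10.81 and 11.12. The groups of the lines did not overlap. It was 4.05-fold lower in Hdh109/109 cells untransfected (-2.02 ± 0.14, adjusted p = 3.45e-06), 2.68-fold with empty vector and 2.41-fold with DNRest.

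Col4a6 showed the widest type IV difference between the untransfected lines. Its log2 signal in Hdh7/7 cells was 9.75 and 10.00 untransfected, 8.97 and 8.99 with empty vector and 8.97 and 9.01 with DNRest. On the Hdh109/109 arrays it was 7.64 and 7.34, 7.69 and 7.35, and 7.63 and 7.92. The lines did not overlap in any state. The difference was 5.23-fold untransfected (-2.39 ± 0.17, adjusted p = 4.07e-06), 2.76-fold with empty vector and 2.32-fold with DNRest. A dimmer Col4a6 probe, detected only on the untransfected Hdh7/7 arrays at 6.51 and 6.36, was left out of these counts, and neither line detected it after transfection.

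Col4a5, the genomic neighbour of Col4a6, had the narrowest transfected difference. It was at 11.10 and 11.01, 10.15 and 9.99, and 9.84 and 9.94 in Hdh7/7 cells, and at 9.46 and 9.39, 9.39 and 9.46, and 9.48 and 9.45 in Hdh109/109 cells. The lines did not overlap, and the difference was -1.63 ± 0.12 untransfected, -0.65 with empty vector and -0.42 with DNRest. Col4a5 was thus 3.1-fold, 1.57-fold and 1.34-fold lower in Hdh109/109 cells (adjusted p = 4.95e-06, 0.0021 and 0.0214). The DNRest call was lost without Hdh7/7 DNRest replicate 1 (-0.47, adjusted p = 0.0604) or 2 (-0.37, adjusted p = 0.122), and without Hdh109/109 DNRest replicate 1 (-0.44, adjusted p = 0.0855) or 2 (-0.41, adjusted p = 0.11). A second Col4a5 probe was called lower in all 3 states, with untransfected signals of 9.64 and 9.54 in Hdh7/7 and 7.77 and 7.96 in Hdh109/109 cells.

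Scaling bears on the transfected type IV values. Scaling arrays to a common median instead of common quantiles moved the median line difference of all probes to 0.62 with empty vector and to 0.17 with DNRest, and left it at 0.03 untransfected. All 4 type IV genes lay below that median in each state under this scaling, with 4 called lower untransfected and 3 in each transfected state. Col4a5 was the gene not called, at -0.04 with empty vector (adjusted p = 0.92) and -0.28 with DNRest (adjusted p = 0.6), and its second probe turned to 0.27 with empty vector (adjusted p = 0.492).

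**Figure D2:**
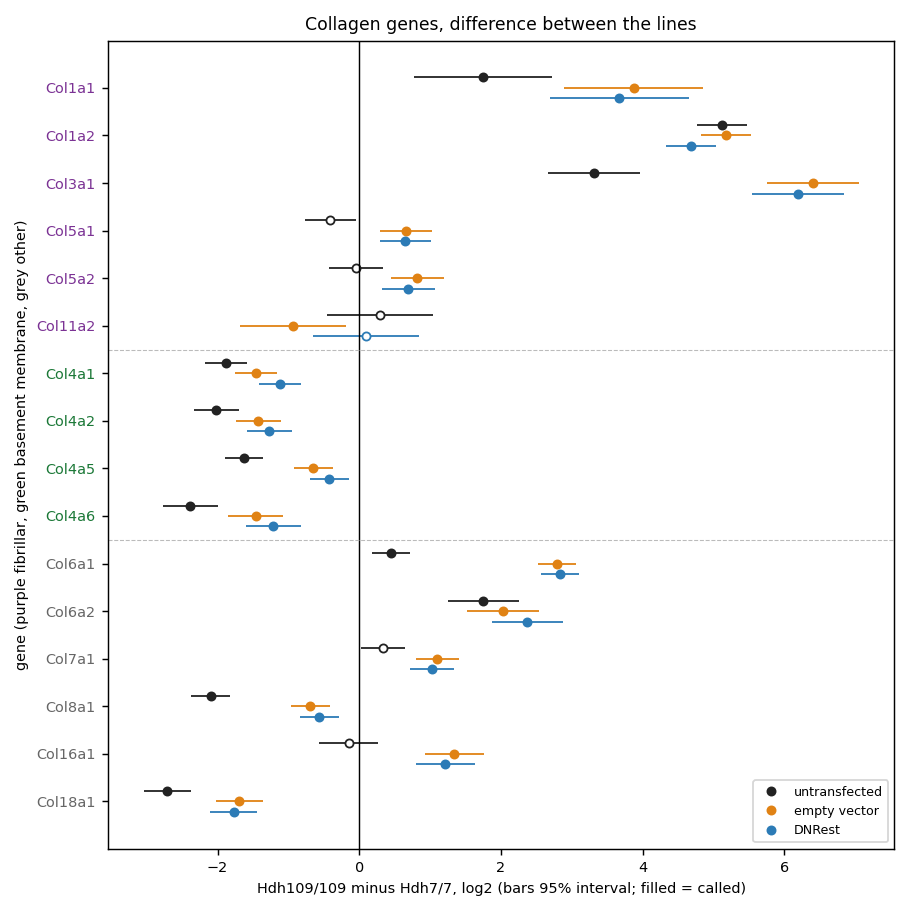
Difference between the lines (Hdh109/109 minus Hdh7/7, log2) for each tested collagen gene in untransfected, empty vector and DNRest cells, with 95% intervals and filled points for called differences. The type IV genes lie left of 0 in each state, Col1a1, Col1a2, Col3a1, Col6a1 and Col6a2 lie right of it, and Col16a1 is at -0.15 untransfected and at 1.34 with empty vector.

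The other collagens divided by gene. Col6a1 and Col6a2 encode chains of type VI collagen, which forms beaded microfilaments around cells. Col6a1 was at log2 11.55 and 11.58 in untransfected Hdh7/7 cells, 9.83 and 9.91 with empty vector and 9.66 and 9.62 with DNRest. Hdh109/109 cells had values of 11.97 and 12.06, 12.60 and 12.74, and 12.42 and 12.52. The untransfected lines thus stood close, and the transfected ones far apart. Col6a1 was 1.37-fold higher in Hdh109/109 cells untransfected (0.45 ± 0.12, adjusted p = 0.0148), 6.93-fold with empty vector (adjusted p = 9.18e-08) and 7.1-fold with DNRest (adjusted p = 8.59e-08). A second Col6a1 probe had nearly the same values, from 9.50 to 11.54 in Hdh7/7 and from 12.08 to 12.80 in Hdh109/109 cells. The untransfected call of Col6a1 was lost without Hdh7/7 untransfected replicate 1 (0.45, adjusted p = 0.0659) or 2 (0.47, adjusted p = 0.0564), without Hdh109/109 untransfected replicate 2 (0.41, adjusted p = 0.0836) and with median scaling (0.33, adjusted p = 0.528).

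Col6a2 differed between the lines in every state. It was at 7.68 and 7.50, 6.85 and 7.54, and 6.92 and 7.07 in Hdh7/7 cells, and at 9.28 and 9.40, 9.45 and 9.00, and 9.31 and 9.42 in Hdh109/109 cells. The lines did not overlap. It was 3.37-fold higher in Hdh109/109 cells untransfected (1.75 ± 0.23, adjusted p = 0.000229), 4.08-fold with empty vector and 5.17-fold with DNRest.

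Col18a1, a heparan sulphate collagen of basement membranes and the source of endostatin, went with the type IV genes between the lines. Its log2 signal was 11.40 and 11.19, 11.05 and 11.16, and 10.93 and 11.11 in Hdh7/7 cells. The corresponding Hdh109/109 values were 8.49 and 8.67, 9.33 and 9.49, and 9.14 and 9.36. No array of one line reached the other. It was 6.56-fold lower in Hdh109/109 cells untransfected (-2.71 ± 0.15, adjusted p = 5.32e-07), 3.23-fold with empty vector and 3.41-fold with DNRest.

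Col8a1, a network-forming collagen of vessel walls and the corneal endothelial membrane, was also lower. It was at 10.46 and 10.41, 9.39 and 9.27, and 8.97 and 9.01 in Hdh7/7 cells and at 8.43 and 8.25, 8.59 and 8.68, and 8.40 and 8.45 in Hdh109/109 cells. The Hdh7/7 values came down towards the Hdh109/109 values with transfection. The gene was 4.28-fold lower in Hdh109/109 cells untransfected (-2.10 ± 0.12, adjusted p = 8.85e-07), 1.62-fold with empty vector (adjusted p = 0.00152) and 1.48-fold with DNRest (adjusted p = 0.00555). Its second probe was called untransfected (-1.39) and with DNRest (-0.62, adjusted p = 0.0236) but not with empty vector, where its mean was 8.61 in Hdh109/109 and 8.62 in Hdh7/7 cells (95% interval of the difference -0.41 to 0.40, adjusted p = 0.987). With median scaling the first probe was not called in the transfected states, at -0.02 with empty vector and -0.33 with DNRest.

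Col7a1, the anchoring fibril collagen that ties basement membrane to stroma, was at 8.33 and 8.37, 7.97 and 7.93, and 8.19 and 8.29 in Hdh7/7 cells. The Hdh109/109 arrays gave 8.65 and 8.72, 8.90 and 9.21, and 9.19 and 9.35, above every Hdh7/7 array. The untransfected difference of 0.34 ± 0.14 did not pass (adjusted p = 0.0841), and it was 2.15-fold higher with empty vector (1.10, adjusted p = 0.000167) and 2.04-fold with DNRest (1.03, adjusted p = 0.000299). Col16a1, a collagen with interrupted helices that associates with fibrils and microfibrils, was at 11.32 and 10.86, 10.11 and 10.24, and 10.17 and 10.20 in Hdh7/7 cells. On the Hdh109/109 arrays it was 10.94 and 10.93, 11.28 and 11.75, and 11.36 and 11.43. Its untransfected groups overlapped (-0.15 ± 0.19, adjusted p = 0.571), and it was 2.53-fold higher in Hdh109/109 cells with empty vector (adjusted p = 0.000339) and 2.32-fold with DNRest (adjusted p = 0.000707).

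Over the transfection states, 4 collagen genes detected in both lines were called higher in Hdh109/109 cells in all 3 (Col1a1, Col3a1, Col6a1 and Col6a2) and 6 were called lower in all 3 (Col4a1, Col4a2, Col4a5, Col4a6, Col8a1 and Col18a1). No gene was called in opposite directions in different states. Of all probes tested, 9.09% were called higher and 8.69% lower in all 3 states, and 1.45% in opposite directions. With empty vector 8 of the 15 genes were higher and 7 lower, or 11 and 8 of 20 probes, where 22.9% and 20.3% of all probes were called, 43.2% in all. With DNRest 8 were higher and 6 lower, or 10 and 8 probes, where 18.2% and 18.6% were called, 36.8% in all. The median difference over the 5 fibrillar genes was 0.82 with empty vector and 0.69 with DNRest, and over 6 with Col1a2 it was 2.35 and 2.18, or 2.16 and 2.04 with undetected groups at their bound. Over basement membrane genes it was -1.44 and -1.17.

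Markers of cell types moved between the untransfected lines along with the collagens. Of 8 mesenchymal or fibroblast markers with a probe, 5 were tested and all 5 were called higher in Hdh109/109 cells untransfected, where 17.6% of all probes were. Among the 3 detected in both lines, 3 were called higher untransfected, 1 with empty vector and 2 with DNRest. In the transfected states 22.9% and 18.2% of all probes were called higher. The other 2, Pdgfra (at least 29.7-fold untransfected) and Dcn (at least 5.58-fold), were seen in 1 line only, so the filter fixed their direction. Lum and Thy1 were detected on no array. Over the arrays of all states, the summed linear signal of the list was 3927 to 5095 on Hdh7/7 arrays and 8533 to 10349 on Hdh109/109 arrays. Such sums, here and below, take in undetected genes, whose signal is background. Of 7 neural progenitor markers 4 were tested and all 4 were called lower untransfected, where 18% of all probes were. Only Nes was detected in both lines, and it was called lower in each transfected state too. Sox2 (at least 26.5-fold lower untransfected), Pax6 (at least 14.2-fold) and Prom1 were seen in 1 line only, so the filter fixed their direction. Fabp7 and Sox1 were detected on no array, and the sums were 2896 to 3565 against 312 to 386. The part of these lists in the collagen differences was not tested.

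Most defining markers of the labelled striatal tissue were undetected. Among 10 striatal neuron markers with a probe, Bcl11b, Drd1, Drd2, Gad1, Gad2, Ppp1r1b, Rgs9 and Tac1 were detected on no array. Foxp1 was called higher in Hdh109/109 cells untransfected and with DNRest, but not with empty vector. Penk was called higher in each state, but it was seen in 1 line only, so the filter fixed its direction. The list summed to 463 to 531 in Hdh7/7 and 666 to 789 in Hdh109/109 cells. Endothelial markers, of interest because type IV collagens mark vessels in brain, were undetected except Flt1, and summed to 351 to 547 against 292 to 382. Flt1 was called lower in Hdh109/109 cells untransfected (-1.29), but was not called with empty vector (-0.31) or DNRest (0.08). Mural cell markers gave 1 higher (Acta2, 0.91) and 1 lower (Pdgfrb, -0.54) of 3 tested untransfected, where 17.6% and 18% of all probes were called. With empty vector and with DNRest 1 was higher and 0 lower, where 22.9% and 20.3%, and 18.2% and 18.6%, of all probes were called. Des, Myh11 and Rgs5 were undetected, and the list summed to 8259 to 11331 against 12801 to 19750. Of 5 astrocyte markers only Slc1a3 was tested, at 0.75 between the lines untransfected, 2.54 with empty vector and 2.73 with DNRest (all called), with sums of 269 to 793 against 1078 to 1226. No microglia marker of 5 and no oligodendrocyte marker of 4 was detected on any array or tested. Their sums, of 139 to 168 against 146 to 169, and 121 to 162 against 123 to 144, came from undetected probes only.

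The next comparison asked what transfection with the empty vector changed within each line. In Hdh7/7 cells 10 of 15 collagen genes were called lower and 0 higher, or 14 and 0 of 20 probes. They comprised Col1a1, Col3a1, Col5a1, all 4 type IV genes, Col6a1, Col8a1 and Col16a1. Of all probes 9.5% were called lower and 6.17% higher. In Hdh109/109 cells 2 collagen genes were called higher, Col6a1 and Col18a1, and 0 lower, or 2 and 0 of 20 probes, where 1.96% and 0.959% of all probes were called, 2.92% in all. The median log2 change of the 15 genes was -0.83 in Hdh7/7 cells and 0.28 in Hdh109/109 cells, against -0.04 and 0.00 for all probes. Both comparisons with DNRest, below, share the empty vector arrays with these.

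Col6a1 had the highest change among the called genes detected in all groups, a 3.23-fold drop in Hdh7/7 cells (-1.69 ± 0.12, adjusted p = 0.000114) and a 1.57-fold rise in Hdh109/109 cells (0.65 ± 0.12, adjusted p = 0.02). The array values given above show no overlap between the states in either line. Col3a1 fell by 1.86 ± 0.29 on the log2 scale in Hdh7/7 cells (adjusted p = 0.00372), where 1 of 2 empty vector arrays detected it, and stood at 1.23 ± 0.29 in Hdh109/109 cells, which did not pass (adjusted p = 0.0562). Col1a1 fell by 1.84 ± 0.44 in Hdh7/7 cells (adjusted p = 0.0206), again with 1 of 2 arrays detected. Without Hdh7/7 empty vector replicate 2, the array with the highest background and the lower of the pair for Col1a1 and Col3a1, the Col1a1 change was -1.05 (adjusted p = 0.0766).

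The type IV genes fell together in Hdh7/7 cells, Col4a5 by 0.98 (adjusted p = 0.00143), Col4a6 by 0.90 (adjusted p = 0.00907), Col4a2 by 0.51 (adjusted p = 0.0379) and Col4a1 by 0.50 (adjusted p = 0.0325). In Hdh109/109 cells the same genes ran from -0.08 to 0.08 with no call. Col8a1 fell 2.16-fold in Hdh7/7 cells (-1.11, adjusted p = 0.000913), Col16a1 by 0.91 (adjusted p = 0.0112) and Col5a1 by 0.83 (adjusted p = 0.00965). Col18a1 was the exception among the genes low in Hdh109/109 cells, with -0.19 in Hdh7/7 cells and a called rise of 0.83 ± 0.15 in Hdh109/109 cells (1.78-fold, adjusted p = 0.0171).

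Some cell type markers moved in the same comparison. In Hdh7/7 cells Slc1a3 fell by 1.74 (adjusted p = 0.00274), Flt1 by 0.71 (adjusted p = 0.00612) and Pdgfrb by 0.72 (adjusted p = 0.0166). Prom1, detected in untransfected Hdh7/7 cells only, was at least 1.34-fold lower. Among Hdh109/109 cells Pdgfra rose by 1.17 (adjusted p = 0.0042), Prrx1 fell by 0.96 (adjusted p = 0.0189) and Acta2 by 0.58 (adjusted p = 0.0369). The part of these changes in the collagen responses was not tested.

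These vector responses rest on few arrays. Over all 25 tested probes, 15 were called lower in Hdh7/7 cells and 3 higher in Hdh109/109 cells. Fitted with the 4 Hdh7/7 arrays alone, 0 of 25 collagen probes were called (limma; 18 at an unadjusted p under 0.05). Without the 3 arrays of high background, an alternative chosen after the data were seen, 8 were called lower. Leaving out Hdh7/7 untransfected replicate 1 or 2 gave 8 and 9 called lower. The Col4a1 and Col4a2 calls were lost in both cases (adjusted p = 0.133 and 0.193, and 0.118 and 0.0901). With Hdh7/7 empty vector replicate 2 left out, Col4a1 was at -0.48 (adjusted p = 0.127) and Col4a2 at -0.48 (adjusted p = 0.147). In Hdh109/109 cells the count of 3 ran from 0 without empty vector replicate 2 to 7 without empty vector replicate 1, and it was 1 without either untransfected replicate. Median scaling moved the median change of all probes to -0.45 in Hdh7/7 cells, and the 15 collagen calls held, from -2.34 to -0.92.

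**Figure D3:**
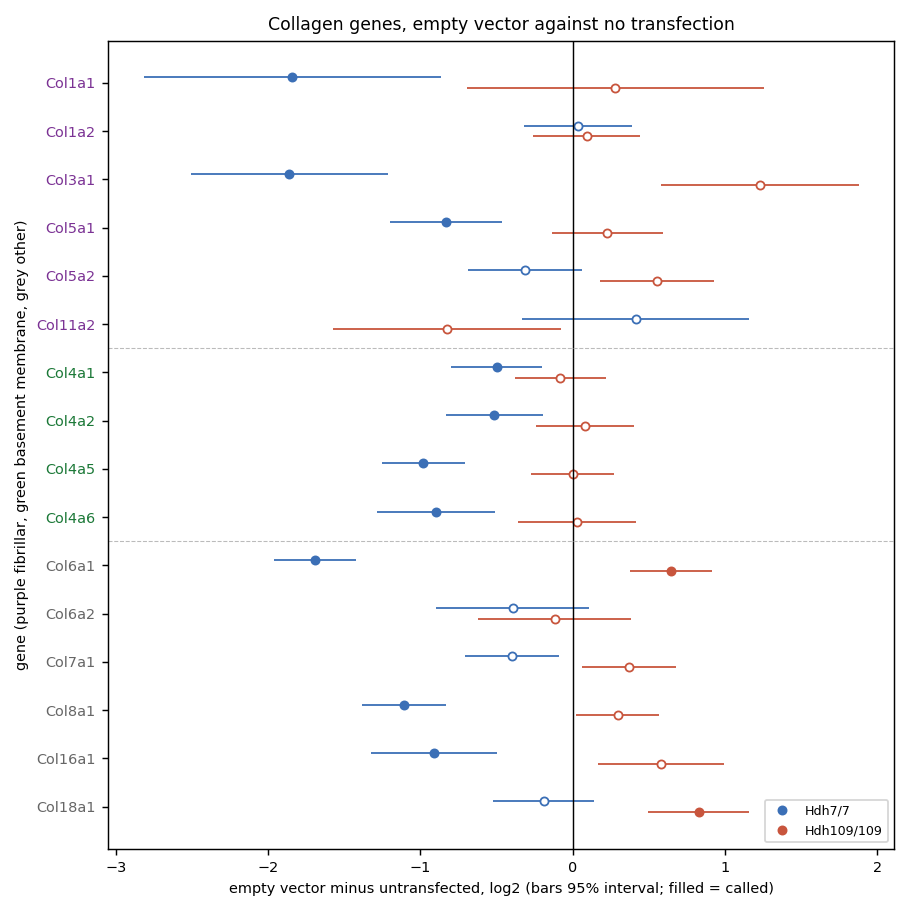
Change with empty vector against no transfection (log2) for each tested collagen gene in Hdh7/7 (blue) and Hdh109/109 cells (red), with 95% intervals and filled points for called changes. In Hdh7/7 cells 10 genes are called lower, while in Hdh109/109 cells the type IV genes sit near 0 and Col6a1 and Col18a1 are called higher.

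The difference between these responses was tested directly. In Hdh109/109 cells the change was called more positive than in Hdh7/7 cells for 10 of 15 genes, or 14 of 20 probes, and 0 were called the other way. Of all probes 7.13% were called in the first direction and 4.91% in the second. Col3a1 differed by 3.09 ± 0.41 (log2, adjusted p = 0.00204) and Col6a1 by 2.34 ± 0.17 (adjusted p = 8.99e-05). Col16a1 differed by 1.49 (adjusted p = 0.00825) and Col8a1 by 1.40 (adjusted p = 0.00142). The genes not called were Col1a1 (2.12, adjusted p = 0.0524), Col1a2, Col4a1 (0.42, adjusted p = 0.172), Col4a2 (0.59, adjusted p = 0.0839), Col6a2 (0.28) and Col11a2 (-1.24, adjusted p = 0.116). Only the calls of Col3a1, Col6a1 and Col8a1 among the 10 genes held under every alternative in which they were refitted.

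Set on the untransfected Hdh7/7 mean, the classes took different courses over the arrays. The median over the 4 type IV genes lay between -0.69 and -0.85 on the 4 transfected Hdh7/7 arrays and between -1.74 and -1.99 on the 6 Hdh109/109 arrays. The median over the 5 fibrillar genes lay between -0.81 and -0.94 on transfected Hdh7/7 arrays and between -0.02 and 0.78 on Hdh109/109 arrays. For the 6 other genes these ranges were -0.63 to -0.86 and 0.08 to 0.76. On Hdh109/109 untransfected replicate 2 and DNRest replicate 1, both of high background, the fibrillar median was the value of the dim Col11a2 (0.78 and 0.45). Transfected Hdh7/7 arrays were thus below the untransfected ones in each class, while the Hdh109/109 arrays were below in the basement membrane class, above in the other collagens and, in the fibrillar class, above on 5 of 6 arrays.

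The last comparison asked whether DNRest changed collagen genes relative to the empty vector. No collagen probe of 25 was called in Hdh7/7 cells, in Hdh109/109 cells or in the difference between them (limma; 1, 6 and 3 probes at an unadjusted p under 0.05). Of all probes, 0.0985% were called in Hdh7/7 cells, all higher, 0.138% in Hdh109/109 cells, with 0.131% higher and 0.00657% lower, and 0% in the difference. The fitted changes ran from -0.55 to 0.34 in Hdh7/7 cells and from -0.75 to 0.62 in Hdh109/109 cells. Col3a1 had the lowest value in both lines, at -0.55 ± 0.29 and -0.75 ± 0.29. With 2 arrays a group the 95% interval of Col3a1 in Hdh109/109 cells ran from -1.40 to -0.11 without adjustment (adjusted p = 0.385), so 2 arrays a group leave changes of this size undecided. The type IV genes stayed within -0.20 to 0.00 in Hdh7/7 cells and 0.04 to 0.25 in Hdh109/109 cells. With the groups compared alone, the counts were likewise 0 (1, 5 and 2 probes unadjusted).

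Genes that fold, modify, secrete, process, bind and degrade collagen were listed as a pathway of 56 genes, of which 49 had a probe and 34 were tested. Between the untransfected lines 12 were higher and 6 lower in Hdh109/109 cells, with a median of 0.28, or 0.26 with undetected groups at their bound, where 17.6% and 18% of all probes were called. Over the 31 detected in both lines the counts were 10 and 6. Ctsk, Ddr2 and Tango6 were seen in Hdh109/109 cells only, so the filter fixed their direction. Higher were the collagen-degrading protease Ctsk (at least 3.04-fold), the collagen receptor kinase Ddr2 (at least 2.54-fold) and the gelatinase Mmp2 (2.16 ± 0.17, adjusted p = 7.62e-06). Lower were the collagen-binding integrin Itga11 (at least 5.73-fold, adjusted p = 6.13e-06), the prolyl 3-hydroxylase P3h2 (-2.25 ± 0.29, adjusted p = 0.000246) and the related P3h4 (-1.44 ± 0.14, adjusted p = 4e-05). In mouse, P3h2 acts mainly on basement membrane collagens. The 15 undetected genes included the collagenases Mmp8 and Mmp13.

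In the transfected states the pathway counts were 22 higher and 3 lower with empty vector (median 0.79, or 0.72 at the bound) and 20 higher and 3 lower with DNRest (median 0.60, or 0.46 at the bound). Without the 3 genes seen in 1 line they were 19 and 3, and 18 and 3, of 31, where 22.9% and 20.3%, and 18.2% and 18.6%, of all probes were called. Mmp2 was 15-fold higher with empty vector and 17.2-fold with DNRest, P4ha2, a prolyl 4-hydroxylase subunit, 2.76 on the log2 scale with empty vector, and Pcolce2, an enhancer of procollagen cleavage, -0.87 and -1.24. Against no transfection, 8 pathway genes were lower and 1 higher with empty vector in Hdh7/7 cells, where 9.5% and 6.17% of all probes were called, with Itga11 at -2.32, Mmp2 at -1.50, the protease inhibitor Timp3 1.99-fold lower and Pcolce2 at 0.48. In Hdh109/109 cells Ctsk was higher (0.62, adjusted p = 0.0316) and Pcolce2 lower (-0.64, adjusted p = 0.0362), where 1.96% and 0.959% of all probes were called. With DNRest 0 of 34 were called in either line (limma; 3 in each line at an unadjusted p under 0.05). The response to the empty vector differed between the lines for 8 of 34, 7 of them more positive in Hdh109/109 cells, where 12% of all probes were called.

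**Figure D4:**
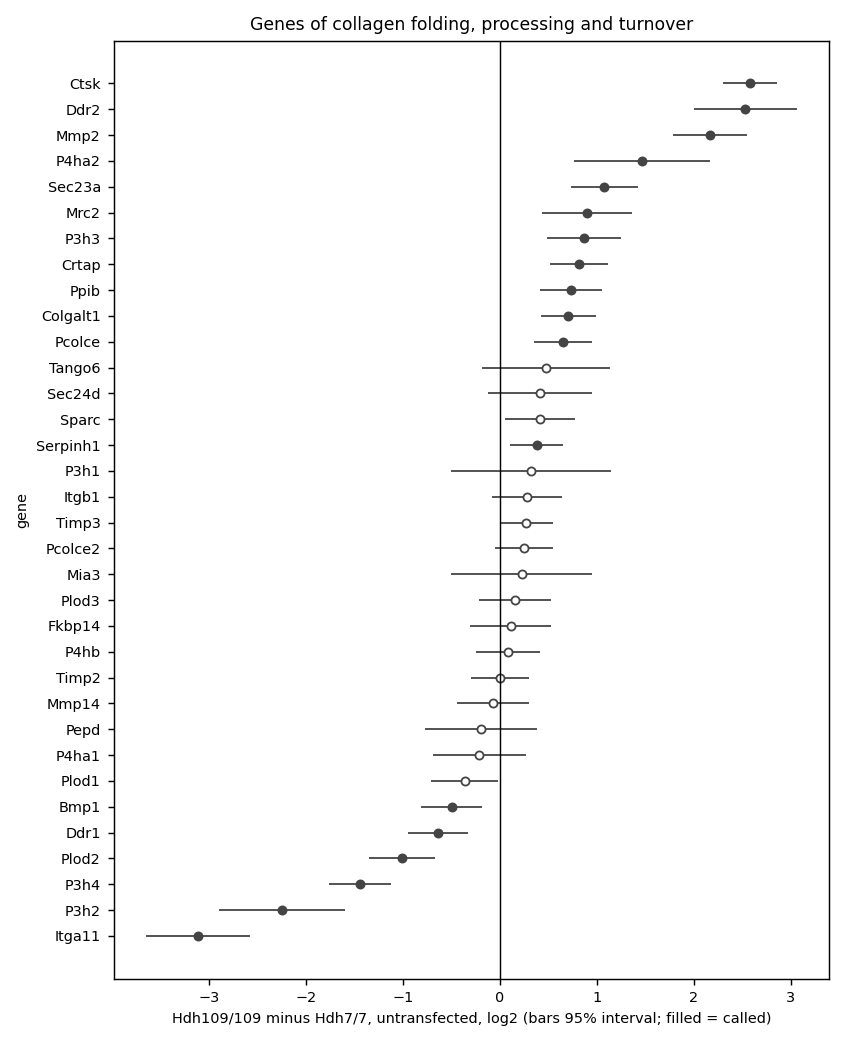
Difference between the untransfected lines (Hdh109/109 minus Hdh7/7, log2) for the 34 tested genes of collagen folding, processing, binding and turnover, with 95% intervals and filled points for called differences. Mmp2 lies above 2, and Itga11 and P3h2 lie below -2. Ctsk and Ddr2 also lie above 2, but they were seen in Hdh109/109 cells only, so the filter fixed their direction.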

How the data were processed

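RNA from 12 cell samples, 6 groups of 2, was measured on Illumina mouse BeadChip arrays. The deposited unnormalized table holds linear bead intensity and a detection p-value for each of 44505 probes, per the file headers. The deposited series matrix holds log2 values by the authors, whose steps are not given in the sources used here. Its rows did not follow their probe identifiers (rank correlation with the intensity of 0.0175 to 0.0341), so it was not used. The submitters' processing notes name limma. Background was corrected from the detection p-values (offset 16) and arrays were quantile normalized, with limma 3.58.1 under R 4.3.3. Of all probes, 15224 were detected (p under 0.01) on at least 2 arrays and tested. The model had 1 mean per group over 12 arrays, with 6 residual degrees of freedom, two-sided tests over 9 comparisons, and Benjamini-Hochberg adjustment over all probes. It was tested on simulated data.

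Symbols came from the platform annotation, which gave 28471 probes 1 symbol. A gene stands for its probe with the highest mean signal. Where a group was undetected on both arrays, the bright mean was set against the higher of the lowest detected signal and the probe's own, which gives the "at least" folds. They carry no error beyond the number of arrays. Array values are given for every tested member called between the lines. Pathway genes were named as up to 3 called members per direction. The members and lists were chosen with earlier results of these data known. Tested alternatives were no background correction, an offset of 50, median scaling, both other detection filters, the compared groups alone, a replicate block and each array left out. Leaving out 3 high background arrays, and counting only probes detected in both lines, were added after seeing the data.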

Additional observations from a re-analysis of the deposited data

Results flagged for a closer look

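The response to the empty vector differed between the lines, by a test of the difference itself (limma, change in Hdh109/109 minus change in Hdh7/7, log2), for 17 of 25 collagen probes, where 12% of all probes did. Of these, 14 were detected in both lines. The other 3 passed the filter through 1 line only and support nothing: the dimmer Col3a1 probe at 1.64 (adjusted p = 0.015), the dimmer Col4a6 probe at 0.72 (adjusted p = 0.0373) and a Col5a2 probe at -0.89 (adjusted p = 0.0257). The Col6a1 probes differed by 2.34 (adjusted p = 8.99e-05), 2.33 (adjusted p = 0.000276) and, for a dimmer probe, 1.28 (adjusted p = 0.0315). Among fibrillar genes, Col3a1 differed by 3.09 (adjusted p = 0.00204) and Col5a1 by 1.06 (adjusted p = 0.0189). Col5a2 differed by 0.87 (adjusted p = 0.0438) on its brightest probe.

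Among basement membrane genes, the Col4a5 probes differed by 0.98 (adjusted p = 0.00803) and 1.24 (adjusted p = 0.00423), and the brighter Col4a6 probe by 0.92 (adjusted p = 0.0388). The Col8a1 probes differed by 1.40 (adjusted p = 0.00142) and 1.38 (adjusted p = 0.0107). Col16a1 differed by 1.49 (adjusted p = 0.00825), Col18a1 by 1.02 (adjusted p = 0.0151) and Col7a1 by 0.77 (adjusted p = 0.0336). Groups of 2 arrays are too small for a test of single outlying arrays. The array with the highest raw median, Hdh7/7 empty vector replicate 2, and Hdh109/109 untransfected replicate 2 enter all these differences, and without the 3 high background arrays 6 of the 17 calls held.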

How the results depend on the processing

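Counts here are over all 25 tested collagen probes, the 5 seen in 1 line only included. Between the lines, with single arrays left out, they ran from 12 to 19 untransfected (17 with all arrays). They ran from 18 to 23 with empty vector (23) and from 16 to 22 with DNRest (21). With probes detected on all 12 arrays, 14 of 15 were called with empty vector. Of the genes called, 9 of 11 untransfected, 11 of 16 with empty vector and 11 of 15 with DNRest kept their call in every alternative in which they were refitted. Counts of the empty vector response were less stable. In Hdh7/7 cells (15) they ran from 8 to 16 with single arrays left out and were 0 with the compared groups alone and 8 without the 3 high background arrays. In Hdh109/109 cells (3) they ran from 0 to 7, and were 6 without background correction and 5 with an offset of 50. The line difference of that response (17) ran from 8 to 18, and was 10 with the compared groups alone and 6 without the 3 arrays. The causes were not tested. DNRest gave 0 under every alternative (limma; 1, 6 and 3 at an unadjusted p under 0.05 in the fit reported).

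Of 96 single probe calls, 1 turned its direction, the second Col4a5 probe with empty vector under median scaling (0.27, below the median of all probes). In that setting 78 of 96 calls held, and with the compared groups alone 66. A replicate block gave counts of 17, 22, 21, 13, 3, 0, 0, 14 and 0 over the 9 comparisons, and 90 of 96 calls held. The replicate numbers did not pair the samples: same-numbered arrays of 15 pairs of groups correlated at -0.445 to 0.359 in their deviations, 2 of them above 0.1. Signal over background limits Col1a1, Col1a2, Col3a1 and Col11a2 in Hdh7/7 cells.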
